A study of Rattus norvegicus with 12 samples.

Results

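The genes described here encode subunits of cytoplasmic dynein 1, and their transcripts were measured in the left ventricle of rats that overexpress the vascular growth factor VEGF-B in cardiomyocytes. The set held 9 of the 13336 named genes on the array: the Tctex-type light chains Dynlt1 and Dynlt3, the roadblock light chain Dynlrb1, the LC8 light chains Dynll1 and Dynll2, the heavy chain Dync1h1, the intermediate chain Dync1i2 and the light intermediate chains Dync1li1 and Dync1li2. Each gene was read by 1 probe, so that 9 of the 22517 probes on the array belonged to the set, and all 9 were among the 9054 probes tested, those detected above the negative control beads on at least 6 of 12 arrays. Values are therefore differences in the signal of a single probe. The set was drawn up because Dynlt1 had a large deficit in the VEGF-B TG hearts, and the other 8 genes were included as its relatives. The contrast between VEGF-B TG and WT thus chose Dynlt1, and its values are given as a description without a test.

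Hearts came from 6 VEGF-B TG rats and 6 WT rats, all male, aged 2 months and of Wistar background. In the study's methods the transgene is driven by the αMHC promoter, which is active in cardiomyocytes, and the rats are of an outbred Wistar stock. Which species the transgene came from is stated neither in the labels nor in those methods. WT rats were littermates without the transgene. Each heart was hybridized to its own Illumina RatRef-12 array, and the p-values measure the spread between these hearts only. Left ventricle is a mixture of cells, and in such bulk samples fewer cells of a type and less RNA per cell cannot be told apart.

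Cytoplasmic dynein 1 is the motor that carries cargo along microtubules towards their minus ends. Its heavy chain hydrolyses ATP and walks on the microtubule, its intermediate chains hold the complex together and bind dynactin, and its light intermediate chains bind adaptors that recruit cargo. The light chains of the Tctex, roadblock and LC8 families dimerize on the intermediate chains, and members of the Tctex and LC8 families also bind many proteins outside the motor. In muscle cells, as elsewhere, the motor moves endosomes, lysosomes, mitochondria and messenger RNA particles.

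The promoters of 3 members are shown. These are Dynlt1, which was lower in VEGF-B TG hearts, and the called relatives with a matched promoter, Dynll1 and Dync1i2, which rose. The Dynll1 call was lost in 12 of 22 alternative settings (adjusted p up to 0.156). Dynll2, a called relative that fell, had no matched promoter. The sequences are the 250 bases before the annotated start in RefSeq's GRCr8 assembly, at chr1:49298918-49299167 on the minus strand for Dynlt1, chr12:46972827-46973076 on the plus strand for Dynll1 and chr3:76441371-76441620 on the plus strand for Dync1i2. Capitals mark GC boxes (GGGCGG, or CCGCCC on the other strand) and CCAAT boxes (CCAAT, or ATTGG on the other strand).
Dynlt1: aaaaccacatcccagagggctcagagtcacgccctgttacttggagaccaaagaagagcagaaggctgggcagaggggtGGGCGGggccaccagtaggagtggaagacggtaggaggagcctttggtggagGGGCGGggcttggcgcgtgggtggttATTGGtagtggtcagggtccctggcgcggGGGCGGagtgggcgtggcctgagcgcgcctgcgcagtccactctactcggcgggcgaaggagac
Dynll1: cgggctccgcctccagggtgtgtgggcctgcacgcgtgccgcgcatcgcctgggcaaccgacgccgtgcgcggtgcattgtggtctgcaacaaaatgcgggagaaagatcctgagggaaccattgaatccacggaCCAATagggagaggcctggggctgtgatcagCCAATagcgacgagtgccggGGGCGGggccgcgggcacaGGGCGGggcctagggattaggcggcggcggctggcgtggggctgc
Dync1i2: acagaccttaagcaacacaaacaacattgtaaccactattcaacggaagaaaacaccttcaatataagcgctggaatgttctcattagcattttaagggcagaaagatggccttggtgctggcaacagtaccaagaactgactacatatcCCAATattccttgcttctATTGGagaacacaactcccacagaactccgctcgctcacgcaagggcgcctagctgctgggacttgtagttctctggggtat

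The Dynlt1 window held 3 GC boxes and 1 CCAAT box, the Dynll1 window held 2 of each, and the Dync1i2 window held 2 CCAAT boxes and 0 GC boxes. Among 33469 promoter windows of the same length, 30.5% held a GC box and 34.0% held a CCAAT box. The G and C content was 65.6% for Dynlt1, 68.8% for Dynll1 and 45.6% for Dync1i2, against a median of 51.2% over all windows. Windows were also found for Dync1h1, Dync1li1 and Dync1li2, 6 of the 9 members in all. These uncalled members had 4, 2 and 1 GC boxes, 0 CCAAT boxes each, and a G and C content of 73.2%, 70.4% and 73.2%. A link between boxes and differences was not tested. Dynlt3, Dynlrb1 and Dynll2 were not matched.

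Dynlt1 encodes a Tctex-type light chain that binds the intermediate chain of the motor and, outside it, the cytoplasmic tails of several membrane receptors. Its probe (ILMN_1352889) gave intensities of 217 at the lowest, 258 at the median and 308 at the highest in VEGF-B TG hearts, against 582, 607 and 695 in WT hearts. Every VEGF-B TG heart lay below every WT heart, as for 5.06% of the tested probes. The probe was detected above background on all 12 arrays. The mean intensity was 258 ± 35.3 in VEGF-B TG and 621 ± 42.5 in WT hearts (SD, n = 6 each). After background correction and quantile normalization, the log2 difference (VEGF-B TG minus WT) was -1.95 (SE 0.14), and the signal was 3.87-fold higher in WT. On the log2 scale, 1.39 separated the highest VEGF-B TG heart from the lowest WT heart. The size rested on the background correction, since the difference was -1.26 (SE 0.07), a signal 2.39-fold higher in WT, when no background was corrected.

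Of all 9054 tested probes, 6 had a lower difference than Dynlt1 and 48 had a difference of -1 or below. Just beyond Dynlt1 among the named probes were C1qc (-2.04), a chain of complement C1q, Ecsit (-2.01), an assembly factor of mitochondrial complex I, and Scn4b (-1.97), a sodium channel subunit. Just short of it were Cerk (-1.92), ceramide kinase, Hnrnpa2b1 (-1.86), an RNA-binding protein, and P2rx5 (-1.71), an ATP-gated channel. These values only place Dynlt1 in the order by which it was chosen.

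**Figure D1:**
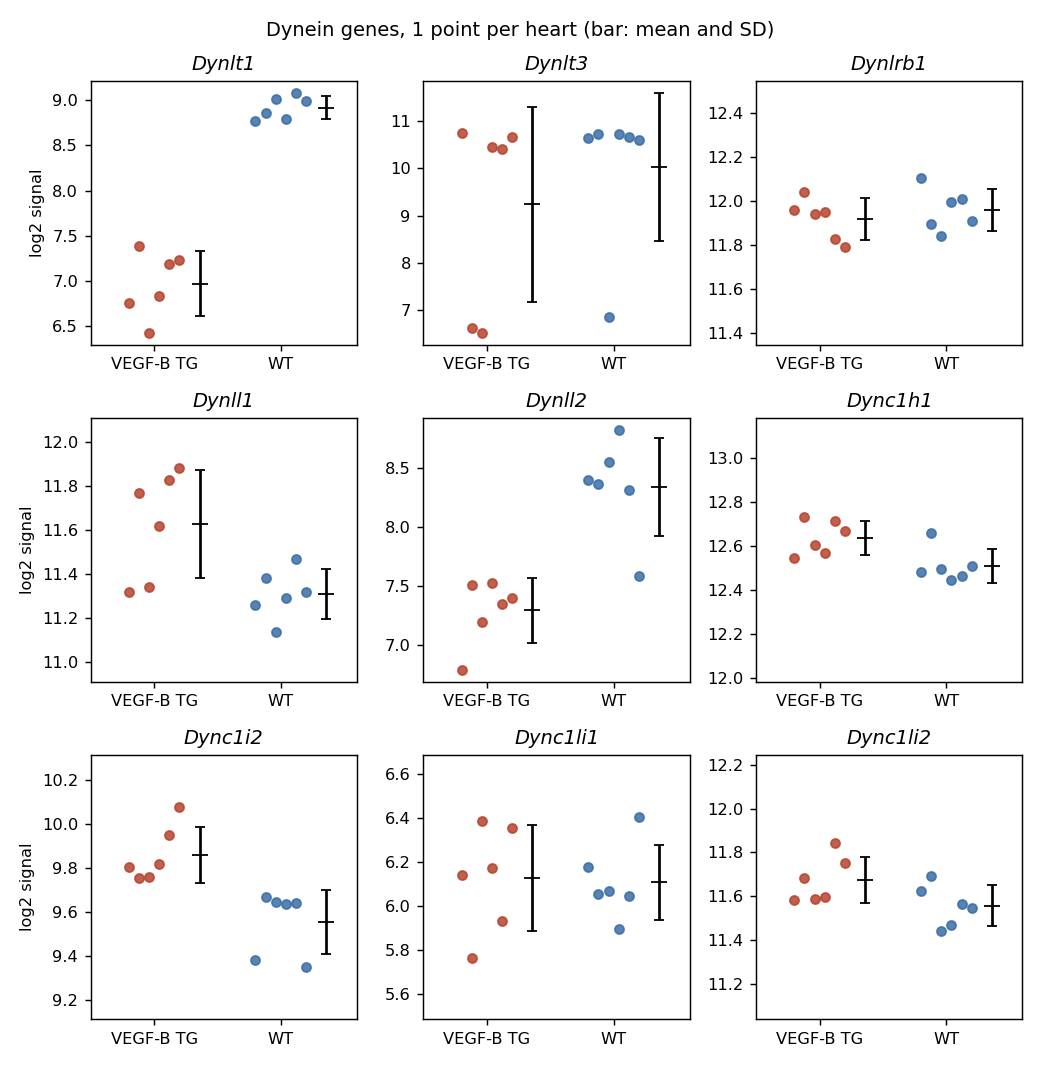
Background-corrected, quantile-normalized log2 signal of the 9 dynein genes in each heart, with VEGF-B TG hearts (red) left of WT hearts (blue) and a bar for the mean and SD (n = 6 each). The vertical axes differ between panels. Dynlt1, which was chosen on this contrast, Dynll2 and Dync1i2 show 2 groups without overlap (by 1.39, 0.06 and 0.08), as do 10.8% of all tested probes. Dynlt3 splits into 3 low and 9 high hearts across both groups.

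Dynlt3, the other Tctex-type light chain and in RefSeq a gene of the X chromosome, had intensities (ILMN_1651019) of 225 at the lowest, 1395 at the median and 1857 at the highest in VEGF-B TG hearts, against 233, 1833 and 1914 in WT hearts. The hearts fell into a low and a high cluster that did not follow the transgene. VEGF-B TG replicates 2 and 3 read 236 and 225, and WT replicate 3 read 233. The other 4 VEGF-B TG hearts lay between 1341 and 1857, and the other 5 WT hearts lay between 1706 and 1914. These are signals of 1 probe, and whether the transcript level split in the same way was not tested. In the 3 low hearts the probe was still called detected, with detection p-values of at most 0.00727. The log2 difference between the groups was -0.79 (SE 0.88, adjusted p = 0.565 by limma with Benjamini-Hochberg adjustment over all tested probes, threshold 0.05), with a 95% interval of -2.67 to 1.09 that spans both directions.

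The gap between the low and the high hearts of Dynlt3 was 3.55 on the log2 scale, between 6.85 and 10.40. Only 3 other tested probes had a gap between adjacent hearts at least as large. A gap of 1 or more was found for 57 probes, and of these only the Dynlt3 probe had VEGF-B TG replicates 2 and 3 and WT replicate 3 as its low hearts. The within-group SD of Dynlt3 was 1.83, against a median of 0.165 over all tested probes and 0.27 for Dynlt1. Within each heart, Dynlt1 minus Dynlt3 averaged -2.27 ± 2.05 in VEGF-B TG and -1.11 ± 1.61 in WT hearts (log2, SD, n = 6 each), and was not tested because Dynlt1 had been chosen on this contrast.

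**Figure D2:**
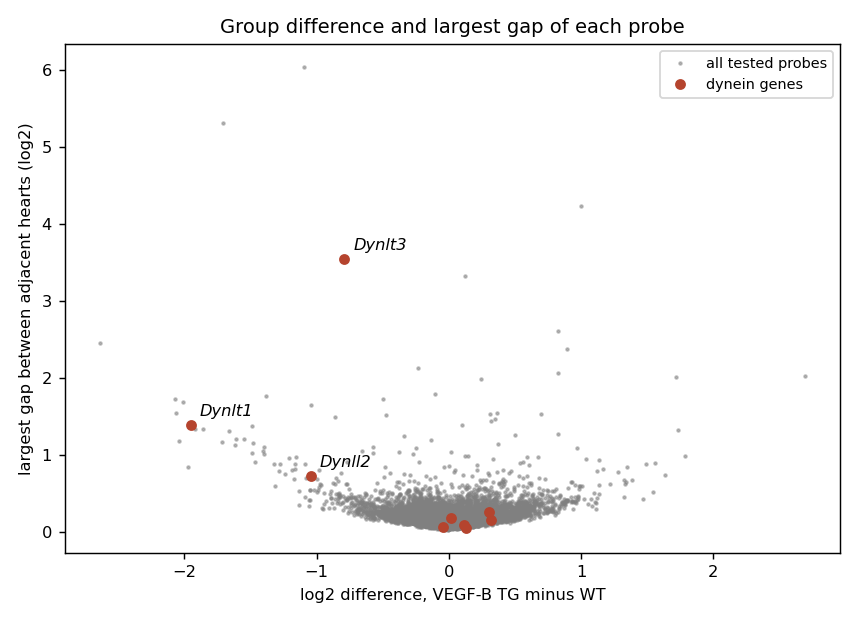
Each point is 1 of the 9054 tested probes, with the log2 difference (VEGF-B TG minus WT) on the horizontal axis and the largest log2 gap between hearts adjacent in rank on the vertical axis; dynein genes are red. Dynlt1 lies at -1.95 with a gap of 1.39 between the groups, Dynlt3 at -0.79 with a gap of 3.55 that runs through both groups, and Dynll2 at -1.04.

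Among the 8 relatives of Dynlt1, the test called 2 higher and 1 lower in VEGF-B TG hearts. Over all tested probes, 11.6% were called higher and 10.3% lower (limma, Benjamini-Hochberg adjusted p under 0.05). Counts of 2 and 1 among 8 genes are read as no result about the set. The median difference of the relatives was 0.07, with 5 of 8 above 0, and that of all tested probes was -0.01. The relatives called were the LC8 genes Dynll2 and Dynll1, in opposite directions, and the intermediate chain gene Dync1i2.

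Dynll2 encodes an LC8 light chain, which is also a light chain of the actin motor myosin Va. Its probe (ILMN_1367739) read 244 at the lowest, 289 at the median and 326 at the highest in VEGF-B TG hearts, against 324, 463 and 589 in WT hearts. The normalized log2 values of the groups did not overlap, although by only 0.06, since WT replicate 6 lay far below the other WT hearts. Such a separation with VEGF-B TG lower was found for 5.06% of tested probes. Dynll2 fell by 1.04 on the log2 scale (SE 0.17, adjusted p = 7.46e-04, interval -1.42 to -0.67), and 45 of the 9054 tested probes had a lower difference. The fall passed the threshold in all 22 alternative settings, among them each array left out, with adjusted p between 5.56e-05 and 0.00242 and differences between -1.19 and -0.66.

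Dynll1, the second LC8 gene, read 2710 at the lowest, 3154 at the median and 3815 at the highest in VEGF-B TG hearts, against 2182, 2838 and 3163 in WT hearts. The groups overlapped. Dynll1 rose by 0.32 on the log2 scale (SE 0.10, adjusted p = 0.0419, interval 0.09 to 0.54). The call was close to the threshold: it was lost with median scaling (adjusted p = 0.156), cyclic loess (0.062) and no filter on dim probes (0.0758). With single arrays left out it was kept only without VEGF-B TG replicate 1, VEGF-B TG replicate 3 or WT replicate 5, and the adjusted p reached 0.0921 over the other 9.

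The difference between the LC8 genes within each heart shows whether they changed unequally, whereas its level has no meaning because the probes differ. Dynll1 minus Dynll2 was 4.33 ± 0.19 in VEGF-B TG and 2.97 ± 0.45 in WT hearts (log2, SD, n = 6 each). It ranged from 4.09 to 4.52 in VEGF-B TG hearts and from 2.47 to 3.73 in WT hearts, without overlap. The change was 1.36 (SE 0.20), with a 2-sided exact permutation p of 0.00216, the smallest that 6 against 6 hearts allow, and of 0.00433 adjusted over the 2 pairs tested. Most of the change came from the Dynll2 probe, whose own difference was -1.04, compared with 0.32 for Dynll1. Without background correction the change was 0.97. The test reuses the values of the 2 probes tested above and is no separate support.

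**Figure D3:**
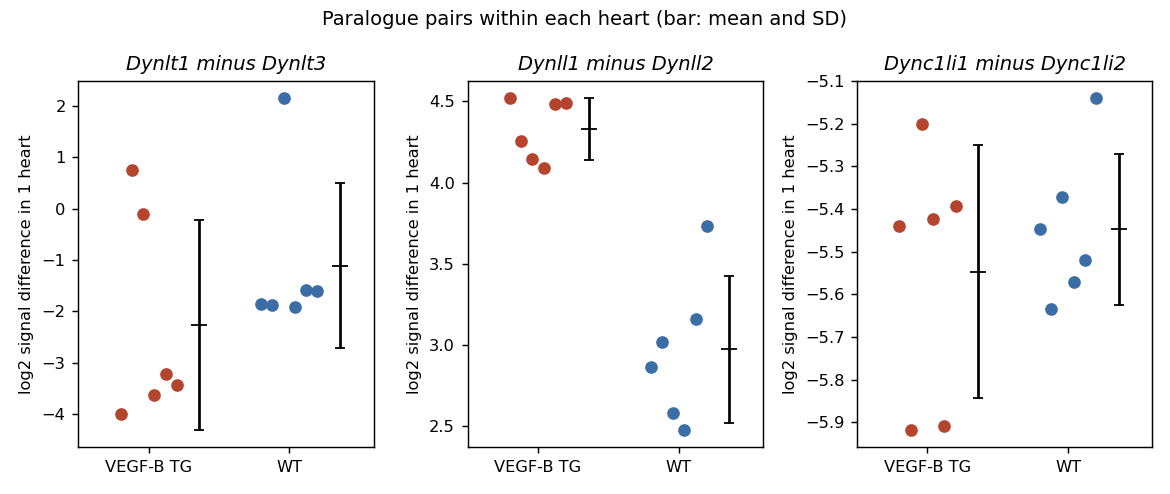
Log2 signal difference between the probes of a paralogue pair within each heart, VEGF-B TG (red) left of WT (blue), with a bar for the mean and SD (n = 6 each); only the shift between the groups can be read, not the level. Dynll1 minus Dynll2 is 4.33 in VEGF-B TG and 2.97 in WT hearts, whereas Dync1li1 minus Dync1li2 overlaps between the groups.

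Dynlrb1 encodes the roadblock light chain. Its intensities were 3504 at the lowest, 3827 at the median and 4449 at the highest in VEGF-B TG hearts, against 3483, 4226 and 5110 in WT hearts, and the groups overlapped widely. The log2 difference was -0.04 (SE 0.07, adjusted p = 0.71). Its interval of -0.18 to 0.10 leaves out a change of the size measured for Dynll2.

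Dync1i2 encodes the intermediate chain onto which all 3 light chain families dock. Its probe read 907 at the lowest, 1036 at the median and 1228 at the highest in VEGF-B TG hearts, against 783, 907 and 965 in WT hearts. On the normalized log2 scale every VEGF-B TG heart lay above every WT heart, by 0.08, as for 5.74% of tested probes. Dync1i2 rose by 0.31 (SE 0.08, adjusted p = 0.0149, interval 0.13 to 0.48), and the call was kept in all 22 alternative settings, with adjusted p between 0.0072 and 0.0484.

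Dync1h1, the heavy chain with the motor domain, read 5373 at the lowest, 6406 at the median and 7053 at the highest in VEGF-B TG hearts, against 5348, 6176 and 6631 in WT hearts. The groups overlapped, and the log2 difference of 0.13 (SE 0.06, adjusted p = 0.148, interval -0.00 to 0.26) did not pass the threshold. Of the 9 members it had the smallest within-group SD, 0.0769.

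The light intermediate chains are the subunits that bind cargo adaptors. Dync1li2 read 2759 at the lowest, 3318 at the median and 3528 at the highest in VEGF-B TG hearts, against 2696, 3301 and 3749 in WT hearts, with a log2 difference of 0.12 (SE 0.07, adjusted p = 0.242, interval -0.03 to 0.26). Dync1li1 was a dim probe, with 176 at the lowest, 194 at the median and 215 at the highest in VEGF-B TG hearts, against 184, 193 and 218 in WT hearts. It was detected in 5 hearts of each group, and its log2 difference was 0.02 (SE 0.11, adjusted p = 0.934, interval -0.22 to 0.26). Both genes overlapped between the groups. Dync1li1 minus Dync1li2 within each heart was -5.55 ± 0.30 in VEGF-B TG and -5.45 ± 0.18 in WT hearts (log2, SD, n = 6 each). That change of -0.10 (SE 0.14) had a 2-sided exact permutation p of 0.489, also after adjustment over the 2 pairs.

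**Figure D4:**
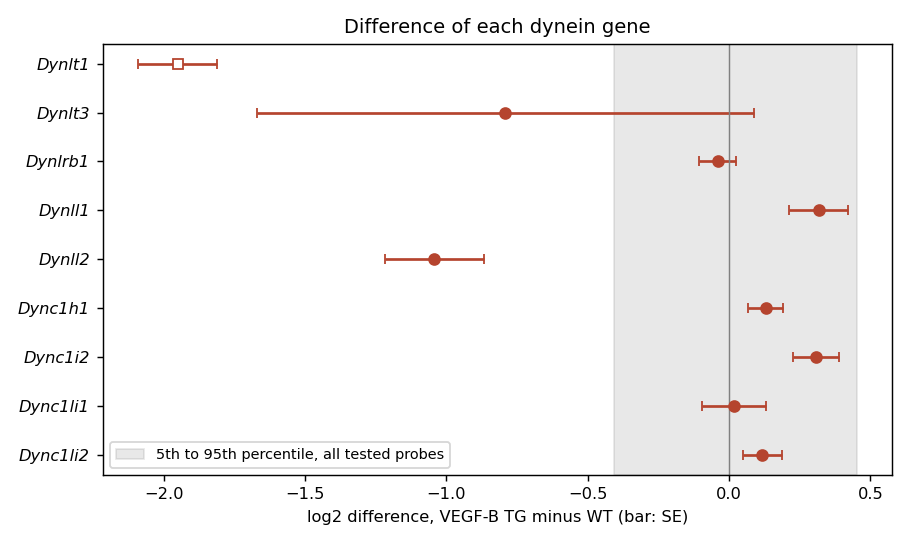
Log2 difference (VEGF-B TG minus WT) of each dynein gene with its SE, over a grey band that spans the 5th to the 95th percentile of all tested probes; Dynlt1 is an open square because it was chosen on this contrast and not tested. Dynlt1 and Dynll2 lie below the band, Dynlt3 lies below it with an SE of 0.88, and the other 6 genes lie inside it.

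The profile of Dynlt1 over the 12 hearts, centred on its own mean, was set against those of the 6818 named probes tested, with the root mean square log2 distance as the measure of likeness. The 5 nearest were Cerk (0.21), Hnrnpa2b1 (0.234), Ndufaf3 (0.268), which encodes an assembly factor of mitochondrial complex I, Ecsit (0.283) and Nolc1 (0.284), which encodes a nucleolar phosphoprotein. The median distance was 1.02. Of the dynein relatives, Dynll2 was nearest at 0.588, and the other 7 lay between 0.995 for Dynlrb1 and 1.78 for Dynlt3. All profiles share the same 12 arrays, and the 5 nearest genes had group differences between -2.07 for Ndufaf3 and -1.66 for Nolc1. The group difference was left in the profiles. The distances therefore draw on the contrast that chose Dynlt1 and are no separate support.

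The genes that flank Dynlt1 in the GRCr8 annotation were also read. Zdhhc14, Synj2 and Gtf2h5 on one side and Ezr, Sod2 and Wtap on the other are the nearest tested genes. Their differences lay between -0.08 for Sod2, the mitochondrial superoxide dismutase, and 0.16 for Ezr, the membrane-to-actin linker ezrin, and none of the 6 passed the threshold (adjusted p between 0.301 and 0.965). Around Dynll2, 4 of 6 tested neighbours did not pass, with differences between 0.04 and 0.15. The mitochondrial ribosomal protein gene Mrps23 fell by 0.36 (adjusted p = 6.74e-04) and Akap1, which anchors protein kinase A at mitochondria, fell by 0.29 (adjusted p = 0.0344). The 6 tested neighbours of Dynlt3 had gaps between adjacent hearts of 0.10 to 0.39, against 3.55 for Dynlt3. Of these, Srpx and Rbm3 were higher by 0.36 (adjusted p = 0.0117) and 0.80 (adjusted p = 0.00529). Over all tested probes, 11.6% were called higher and 10.3% lower. The calls among neighbours are read as no result about these regions.

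Other genes of the pathway were counted from lists, beside the 11.6% of all tested probes called higher and the 10.3% called lower. No list was tested as a set, and the counts are read as no result about a list. Of the other dynein 1 subunits, Dync1i1, Dynlrb2 and Dynlt5 had probes that were detected on 0 arrays, so none was tested. Of the 12 dynactin genes listed, 10 were tested, and of these 1 was called higher and 0 lower, with a median difference of 0.03. That gene was Dctn2, which encodes dynamitin, a subunit of the dynactin shoulder. It rose by 0.17 (SE 0.05, adjusted p = 0.0366), but the call was lost in 11 of 22 alternative settings, in 8 of them by leaving out VEGF-B TG replicate 2, 4, 5 or 6 or WT replicate 1, 2, 4 or 5, and the adjusted p reached 0.317. Dynein 2, the motor of transport inside cilia, had 3 of 5 listed genes tested and 1 called higher, with a median of 0.21. It was the light intermediate chain gene Dync2li1, which was dim (186 to 205 in VEGF-B TG, 171 to 198 in WT hearts) and detected in 6 VEGF-B TG and 2 WT hearts. Its probe met the 6-array filter only through the group where it is high, so its difference of 0.33 (0.16 without background correction) is given with no test and the count supports nothing.

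Among the 12 dynein regulators and adaptors tested of 21 listed, 4 were called lower and 1 higher, with a median of -0.16, beside 10.3% lower and 11.6% higher over all tested probes. The calls of Trak2 and Rilp, 2 of the 4 lower genes, were lost in some settings. Nde1, whose protein links the regulator Lis1 to dynein, read 1555 at the lowest, 1896 at the median and 2158 at the highest in VEGF-B TG hearts, against 2167, 2481 and 2887 in WT hearts, and fell by 0.36 (SE 0.08, adjusted p = 0.00695). Hook1, an adaptor that links dynein to cargo, fell by 0.32 (SE 0.08, adjusted p = 0.0106; -0.17 without background correction), and Mapre1, the microtubule plus-end protein EB1, rose by 0.32 (SE 0.07, adjusted p = 0.00394). Trak2, an adaptor of mitochondrial transport, fell by 0.25 (adjusted p = 0.0191, 0.0999 with median scaling), and Rilp, which couples lysosomes to the motor, fell by 0.32 (adjusted p = 0.0366). The Rilp call was lost in 9 of 22 alternative settings, 7 of them with VEGF-B TG replicate 4, 5 or 6 or WT replicate 1, 3, 5 or 6 left out, and its adjusted p reached 0.0771. Pafah1b1, the gene of Lis1 itself, had a difference of -0.11 (adjusted p = 0.541), and Ndel1, the relative of Nde1, of -0.21 (adjusted p = 0.0615).

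Proteins described as partners of dynein light chains were encoded by 9 tested genes of 17 listed. Of these, 3 were called higher and 1 lower, with a median of 0.18, beside 11.6% higher and 10.3% lower over all tested probes. Gphn, the gene of gephyrin, which clusters inhibitory neurotransmitter receptors and also makes the molybdenum cofactor, is a partner of LC8. It read 238 at the lowest, 258 at the median and 288 at the highest in VEGF-B TG hearts, against 444, 514 and 546 in WT hearts. Gphn fell by 1.49 (SE 0.09, adjusted p = 3.47e-08), with no overlap between the groups, as for 5.06% of tested probes in that direction. Its difference was -0.93 without background correction. Arhgef2, a microtubule-bound activator of RhoA, read 1244 to 1538 in VEGF-B TG and 872 to 1040 in WT hearts and rose by 0.58 (SE 0.06, adjusted p = 2.53e-05). Myo5a, the heavy chain of myosin Va, which carries LC8, rose by 0.50 (SE 0.11, adjusted p = 0.00471), and its difference was 0.25 without background correction. Pvr, a cell adhesion receptor, rose by 0.85 (SE 0.25, adjusted p = 0.0255), with 0.48 when no background was corrected. The Pvr call was lost in 6 of 21 alternative settings, 5 of them with VEGF-B TG replicate 5 or 6 or WT replicate 1, 4 or 6 left out, with an adjusted p of up to 0.0637.

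Axonemal dyneins drive the beat of motile cilia, and the ciliated cell markers Ccdc39, Rsph1 and Tekt1 were detected on 0 arrays. Of 17 axonemal genes listed, 6 were on the array, 3 were tested and 1 was called lower, with a median of -0.13. Over all tested probes, 10.3% were called lower and 11.6% higher. Dnal4, a light chain related to LC8, read 232 at the lowest, 262 at the median and 319 at the highest in VEGF-B TG hearts, against 362, 405 and 422 in WT hearts. Dnal4 fell by 0.93 (SE 0.11, adjusted p = 5.26e-05), and all VEGF-B TG hearts lay below the WT hearts, as for 5.06% of tested probes. Without background correction the Dnal4 difference was -0.55. For the kinesins, motors that mostly run the opposite way on microtubules, 9 of 19 listed genes were tested. Of these, 1 was called higher and 2 lower, with a median of 0.05, beside the same shares over all tested probes. Kif3b, a kinesin-2 motor, rose by 0.34 (SE 0.08, adjusted p = 0.00732), with 0.20 when no background was corrected. Kif1b, a kinesin-3 motor, fell by 0.32 (SE 0.08, adjusted p = 0.00788, but 0.104 with median scaling; difference -0.21 without background correction), and Klc4, a kinesin light chain, fell by 0.25 (SE 0.07, adjusted p = 0.0122).

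**Figure D5:**
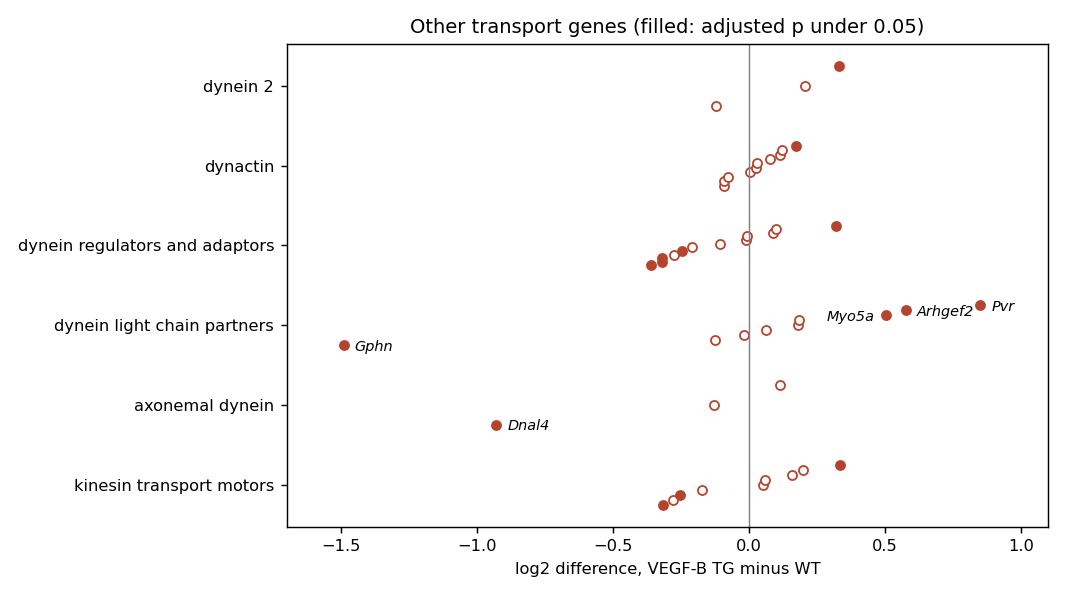
Log2 difference (VEGF-B TG minus WT) of each tested probe in the other transport gene lists, 1 row of points per list, spread vertically for legibility; filled points have an adjusted p under 0.05, including Dync2li1 of dynein 2, which met the filter only through VEGF-B TG hearts. Gphn (-1.49) and Dnal4 (-0.93) lie far to the left, and Pvr (0.85), Arhgef2 (0.58) and Myo5a (0.50) to the right, while the dynactin genes stay close to 0.

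Between 8820 and 9655 probes were detected on VEGF-B TG arrays and between 8452 and 9251 on WT arrays. The rat Vegfb probe read 182 at the lowest, 463 at the median and 514 at the highest in VEGF-B TG hearts, against 219, 877 and 1242 in WT hearts (difference -1.04, SE 0.58, adjusted p = 0.227). It did not show an excess in VEGF-B TG hearts, and since it is not known to bind the transgenic transcript it does not check the labels. Marker calls are set beside the 11.6% of all tested probes called higher and the 10.3% called lower. Sums of markers are of background-corrected, quantile-normalized signal, not of bead intensities. Cardiomyocyte markers were abundant, with a summed signal of 114356 to 124095 in VEGF-B TG and 119323 to 124930 in WT hearts, and 0 of 10 probes were called higher and 2 lower. Of the 9 endothelial markers listed, Pecam1, Kdr and Eng were not on the array, and 6 genes were tested with 7 probes. These moved with the groups: 6 of 7 probes were called higher, and the sum of the 7 was 10787 to 12337 in VEGF-B TG and 6642 to 7973 in WT hearts. Of the 5 macrophage and leukocyte markers listed, Cd68 and Csf1r were not on the array and Ptprc was detected in 1 heart. Only Fcer1g and Laptm5 were tested, and 2 of 2 probes were called higher, with a sum of 1239 to 1888 in VEGF-B TG and 983 to 1237 in WT hearts. Markers of proliferating cells were past the threshold in 4 of 4 probes, with a sum of 652 to 943 in VEGF-B TG and 239 to 541 in WT hearts. Of these, Tpx2, Cdk1 and Ccnb2 were detected in 6 VEGF-B TG hearts but in only 3, 4 and 4 WT hearts, so that the filter favoured probes that are high in VEGF-B TG and the count is no support. Of the fibroblast markers 0 of 6 probes were called higher and 1 lower, of the smooth muscle and pericyte markers 2 of 3 higher and 1 lower (Rgs5, 1 of the 2 higher, was detected in 6 VEGF-B TG hearts and 1 WT heart and so met the filter only through the group where it is high), of the erythroid markers 0 of 2, and the atrial marker Myl7 was not called. Of the 7 smooth muscle and pericyte markers listed, Acta2, Myh11 and Pdgfrb were not on the array and Cnn1 was not tested. Also absent from the array were the listed markers Pln, Mki67, Top2a, Hba1, Myl4 and Sln. The part of the shifts in cell markers in the values of the dynein genes was not tested.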

How the data were processed

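RNA from the left ventricle of 12 rats (6 VEGF-B TG, 6 WT) was labelled as biotinylated cRNA and read on Illumina RatRef-12 arrays. The deposited bead intensities were summarized by the authors, neither background subtracted nor normalized (lowest value 100.5). Beside each intensity, the authors deposited a detection p-value against the negative control beads. A second table deposited by the authors held quantile-normalized log2 values, which differed from log2 quantile values of the intensities by at most 0.00883. The intensities were background corrected with neqc of limma 3.58.1 in R 4.3.3 (offset 16, background from the detection p-values), quantile normalized and log2 transformed. Probes with detection p under 0.05 on at least 6 of 12 arrays were tested (9054 of 22517), with lmFit and eBayes, and their p-values were adjusted together (Benjamini-Hochberg, threshold 0.05). Intervals are 95% intervals of the same fit. The within-heart difference of a paralogue pair was compared with a 2-sided exact permutation test. Probes were named from the platform annotation, with 13747 of 13787 symbols updated to RefSeq GRCr8 by gene number; this annotation names no genome build for the probes, and the genome was used for gene names, gene order and promoters. The arrays' number limits the precision.

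The members and gene lists were chosen with earlier results of these data known. All members were named, as were up to 3 called genes with the smallest p of each other list, the 5 profiles nearest to Dynlt1 and the 3 named probes on each side of it in difference. Trak2, Rilp, Pvr, Pafah1b1, Ndel1, Vegfb, the marker genes and the chromosomal neighbours were named outside this rule, after values were seen. Alternatives were other background corrections, normalizations, filters, variance estimates, array weights, replicate number as a block and leaving out each array. The fit was tested on simulated data.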

Additional observations from a re-analysis of the deposited data

Results flagged for a closer look

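In a group of 6 hearts, the highest or lowest value was marked when it lay farther than 0.625 of the group's range from the next heart (Dixon's critical value). Of 22 groups checked, 2 gave such a value, and chance gives about 1 in 20. In WT hearts the lowest Dynlt3 value was 6.85 on the log2 scale, in replicate 3, and the nearest other WT heart read 10.60, a gap of 0.966 of the range. VEGF-B TG replicates 2 and 3 were as low, at 6.63 and 6.53, but as a pair they were not marked. In WT hearts the highest Dync1h1 value was 12.66, in replicate 2, and the nearest read 12.51, a gap of 0.709 of the range.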

How the results depend on the processing

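The Dynlt1 difference of -1.95 was -1.26 without background correction, -1.51 with normexp on the intensities alone (offset 50) and -1.26 in the log2 table deposited by the authors; with single arrays left out it lay between -2.03 and -1.84. The number of relatives called higher was 2, and was 1 with median scaling, with cyclic loess and with no filter on dim probes, each time by loss of Dynll1; with single arrays left out it was 1 to 2. The number called lower was 1 in all settings. The difference of Dync1li1 changed sign but was never called: it was -0.013 with array weights and lay between -0.035 and 0.0898 with single arrays left out. It was not tested with the filter of detection p under 0.01 on all 12 arrays, which kept 6301 probes.

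The change in Dynll1 minus Dynll2 lay between 0.965 and 1.36 over the alternatives with all arrays and between 1.26 and 1.51 with single arrays left out. That in Dync1li1 minus Dync1li2 lay between -0.17 and -0.0019 over all settings and never passed. The labels do not say that replicate numbers pair the hearts, so the numbers were not taken as pairs. Deviations of same-numbered hearts correlated at 0.185 to 0.227 for replicates 1, 3, 4 and 5 and at -0.144 and -0.0744 for replicates 2 and 6. Hearts of unlike number were not correlated, so these values cannot decide on a pairing. With replicate number as a block, the calls of the relatives were 2 higher and 1 lower as before. The Dynlt1 difference stayed -1.95 and the Dync1i2 adjusted p was 0.0404. The change in Dynll1 minus Dynll2 was still 1.36, with an exact p of 0.0313, the smallest that 6 pairs allow. After adjustment over the 2 paralogue pairs it was 0.0625 and did not pass. With an exact p of 0.375 for the other pair, no values of Dynll1 minus Dynll2 could have passed, so this setting cannot decide. Among the other transport genes the block ended only the call of Dctn2 (adjusted p = 0.0765). The slide as a block was not run, since the sources used here give no slide. Signals near background limit Dync1li1, Dync2li1 and the low Dynlt3 values, and the sizes for Dynlt1, Dynll2, Gphn, Dnal4, Myo5a, Pvr, Hook1, Kif3b and Kif1b, which were over 1.5 times smaller on the log2 scale without background correction.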
